A study of Mus musculus with 11 samples.

Results

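The genes described here are Nfe2l2, which encodes the transcription factor NRF2, Keap1, which encodes its inhibitor, and 8 antioxidant and detoxification genes that NRF2 is known to drive: Gclc, Gclm, Gsr, Txnrd1, Prdx1, Srxn1, Nqo1 and Hmox1. The 10 genes were taken from a list by symbol, and all 10 were matched to an Ensembl identifier among the 53465 genes of the count table. RNA was sequenced from the quadriceps, a large thigh muscle, of aged C57L/6JRj mice (the strain as the labels spell it). Of the 11 libraries, 6 came from mice given myriocin and 5 from mice given DMSO, the solvent. Dosing started at 18 months of age and went on for 10 weeks in both groups. Myriocin is a fungal inhibitor of serine palmitoyltransferase, the first enzyme of sphingolipid and ceramide synthesis. The comparison asks how transcripts of aged muscle differ after this treatment. No deletion or transgene is named for either group, and whether every library stands for its own mouse is not stated in the labels. The p-values therefore measure only the spread among these samples, which may be technical.

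As background, KEAP1 binds NRF2 in the cytoplasm and hands it to a CUL3 ubiquitin ligase for destruction. Oxidants and electrophiles modify cysteines of KEAP1, after which NRF2 builds up, enters the nucleus, pairs with a small MAF protein and binds antioxidant response elements near its target genes. This control acts largely on the protein, so the Nfe2l2 transcript need not follow NRF2 activity. The targets described here make and recycle glutathione, run the thioredoxin and peroxiredoxin cycle, reduce quinones and break down haem.

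The promoters are shown for the regulator itself and for target genes with a window that met either of these conditions. Their levels entered the closest pair between libraries, or their window held TGACTCAGC, a form of the core described next. The sequences come from RefSeq on build GRCm38.p6, and the bases before the transcription start are given 5′ to 3′ along the gene. Capitals mark the core of the antioxidant response element, TGACNNNGC, on either strand, so that GC at the left end and GTCA at the right end is the element read from the other strand.
Nfe2l2, chr2:75704664-75704913, minus strand: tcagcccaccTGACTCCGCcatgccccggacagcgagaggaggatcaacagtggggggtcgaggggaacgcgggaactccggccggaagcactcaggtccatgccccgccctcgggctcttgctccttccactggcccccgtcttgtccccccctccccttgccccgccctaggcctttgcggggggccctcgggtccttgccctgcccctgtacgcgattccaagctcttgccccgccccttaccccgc
Gclm, chr3:122245307-122245556, plus strand: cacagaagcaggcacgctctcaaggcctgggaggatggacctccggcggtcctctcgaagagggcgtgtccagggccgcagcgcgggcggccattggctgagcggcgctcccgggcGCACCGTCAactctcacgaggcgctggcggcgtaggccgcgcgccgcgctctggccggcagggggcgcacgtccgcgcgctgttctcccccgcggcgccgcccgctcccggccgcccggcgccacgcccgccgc
Prdx1, chr4:116685349-116685598, plus strand: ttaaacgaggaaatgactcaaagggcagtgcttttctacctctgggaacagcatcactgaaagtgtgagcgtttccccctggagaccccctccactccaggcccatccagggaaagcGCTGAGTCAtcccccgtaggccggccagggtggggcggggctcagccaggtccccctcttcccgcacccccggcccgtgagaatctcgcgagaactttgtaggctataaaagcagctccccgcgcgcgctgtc
RefSeq windows, which reach from 250 bases before to 50 bases after a start, were matched for 7 of the 10 genes: Nfe2l2, Keap1, Gclm, Txnrd1, Prdx1, Srxn1 and Nqo1. The core stood in at least 1 window of 5 of these 7 genes, against 14.0% of all 27025 genes with a window and 12.4% of all 32851 windows. It read TGACTCCGC from base -240 to -232 of Nfe2l2, TGACGGTGC from -134 to -126 of Gclm, TGACTCAGC from -133 to -125 of Prdx1, TGACAAAGC from -92 to -84 of 1 of the 3 annotated starts of Txnrd1, and TGACCTAGC from 29 to 37 of Srxn1. The form TGACTCAGC, held by 0.503% of all genes with a window, contains the AP-1 motif TGACTCA, which was found in the windows of Prdx1 and Srxn1 and in 5.95% of all genes with a window. Other forms of the element were not searched for. These matches describe letters and are not measured binding.

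Each library held 22241131 to 23163721 reads counted in genes, and 14117 genes passed the filter on low counts, all 10 described here among them. Levels are given in CPM, read counts relative to the library's total in genes, with TMM scaling factors that lay between 0.956 and 1.06. The labelled tissue was checked by its markers: the sum of 6 muscle fibre genes was 150985 to 182119 CPM in myriocin libraries and 129143 to 162378 CPM in DMSO libraries, and all 6 had reads in every library. DMSO replicate 2 stood apart by neutrophil and adipocyte markers, with sums of 399.1 and 349.6 CPM over 4 and 5 genes. The neutrophil sum was also 57.9 CPM in Myriocin replicate 5, 40.4 in Myriocin replicate 4 and 21.2 in DMSO replicate 4. It was at most 3.17 CPM in the remaining libraries. The next highest adipocyte sum was 148.2 CPM, in Myriocin replicate 4. Myriocin replicate 4, DMSO replicate 4 and DMSO replicate 5 stood apart by hepatocyte markers. Their sums were 118.4, 108.1 and 95.3 CPM over 6 genes, against 5.49 to 26.5 CPM in the other 8 libraries. In bulk tissue, fewer cells of a type and less RNA per cell cannot be told apart. For all genes tested, the median log2 fold change, myriocin minus DMSO, was -0.01.

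No transcript of the NRF2 set passed the test for a difference between myriocin and DMSO muscle. None of the 10 passed edgeR's quasi-likelihood test, with 0 higher and 0 lower at an adjusted p under 0.05, beside 0% of all genes tested, and 0 of 10 had an unadjusted p under 0.05, beside 4.68% of all genes (2.33% higher and 2.34% lower). DESeq2 and limma-voom also gave 0 of 10 at either threshold. The estimates were small and their errors narrow: log2 fold changes ran from -0.13 for Nfe2l2 to 0.04 for Keap1, with a median of -0.03, 7 of the 10 being negative beside 53.7% of all genes. All 10 of the 95% intervals lay within 0.5 log2 units of 0, as did those of 68.9% of all genes, and the bound farthest from 0 was -0.39, for Srxn1. For all 10 genes the CPM values of the groups overlapped, and 0.361% of all genes had groups that did not overlap.

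**Figure D1:**
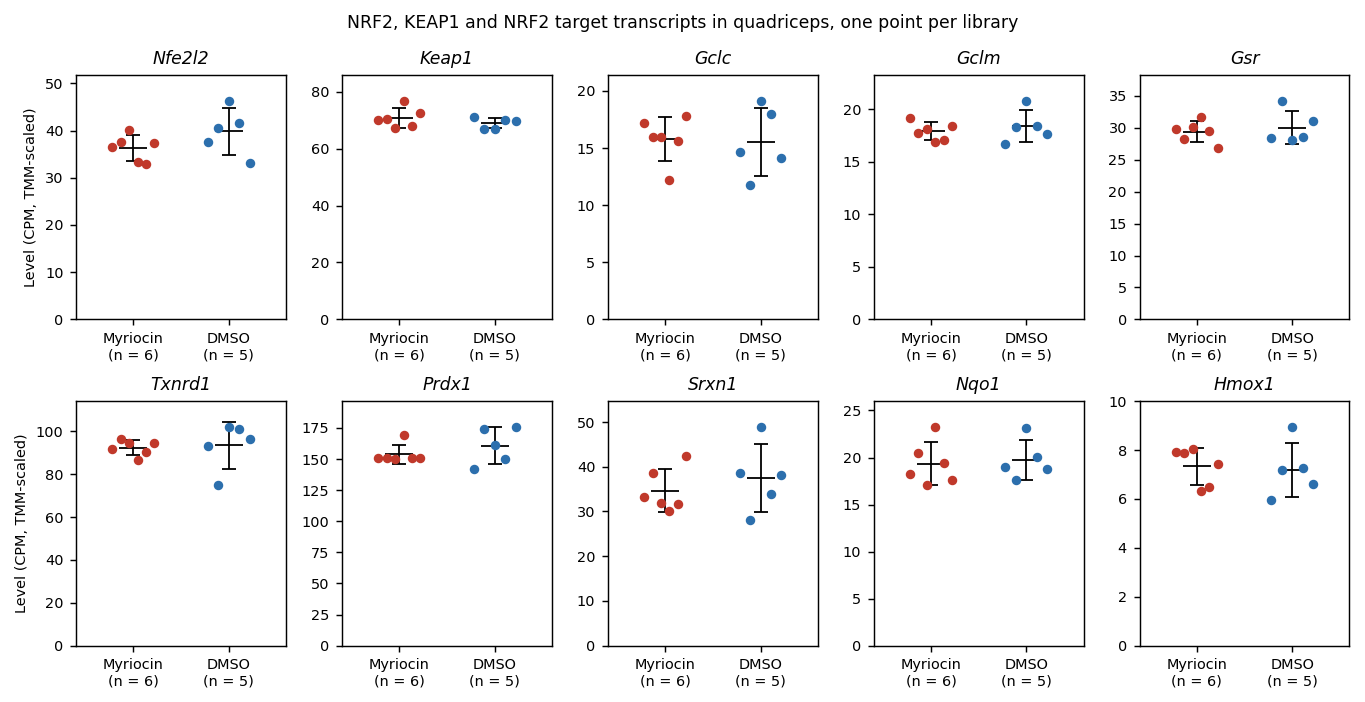
Level of each gene in CPM (vertical axis, from 0) in the 6 myriocin libraries and the 5 DMSO libraries, one point per library, with the mean and SD as bars. In all 10 panels the points of the groups overlap, and DMSO points spread wider in 8 of them.

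**Figure D2:**
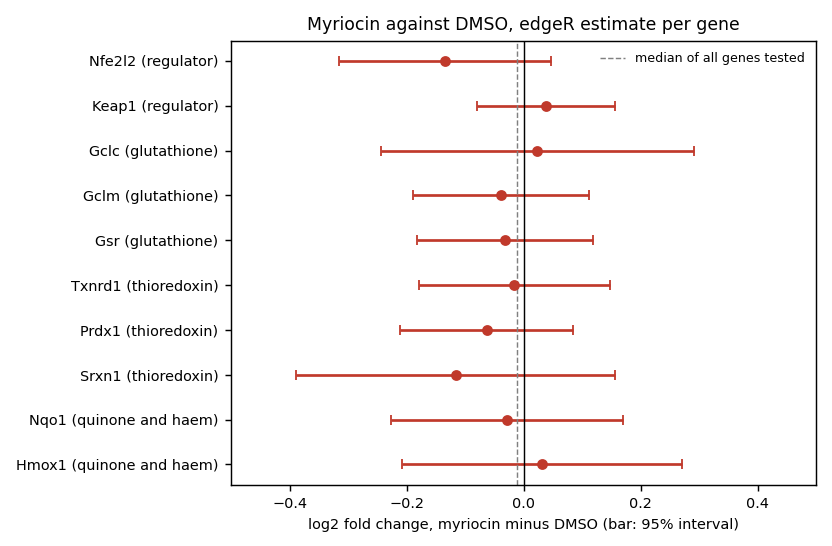
Log2 fold change of each gene, myriocin minus DMSO (horizontal axis), as points with 95% intervals from edgeR, grouped by role. All 10 intervals cross 0, and the lowest estimate is that of Nfe2l2 at -0.13.

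The regulators come first. Nfe2l2 (ENSMUSG00000015839, GRCm38 chromosome 2, 75675513 to 75704641, minus strand, protein coding) had 36.5, 37.5, 40.0, 33.3, 32.8 and 37.3 CPM in Myriocin replicates 1 to 6, and 37.6, 40.5, 46.3, 41.6 and 33.0 CPM in DMSO replicates 1 to 5. DMSO replicate 3 was the highest library, DMSO replicate 5 was about as low as the lowest myriocin library, and the DMSO mean exceeded 5 of 6 myriocin values. The means were 36.3 ± 2.73 CPM with myriocin (SD, n = 6) and 39.8 ± 4.92 CPM with DMSO (SD, n = 5), which makes a log2 fold change of -0.13 with an SE of 0.08 and a 95% interval of -0.32 to 0.05 (adjusted p = 0.936). It kept its sign in all 22 alternatives, between -0.20 without DMSO replicate 5 and -0.07 without DMSO replicate 3, and its adjusted p was never under 0.611 in them. Its unadjusted edgeR p was 0.0237 without DMSO replicate 5 and 0.039 without DMSO replicates 2 and 5 and Myriocin replicate 4.

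Keap1 (ENSMUSG00000003308, chromosome 9, 21229730 to 21239361, minus strand), the adaptor that presents NRF2 for destruction, was the steadiest of the 10. It had 70.04, 70.2, 67.2, 76.8, 68.0 and 72.5 CPM in Myriocin replicates 1 to 6, and 71.1, 66.9, 67.0, 70.1 and 69.7 CPM in DMSO replicates 1 to 5. The values of 10 libraries fell within a narrow band, and Myriocin replicate 4 was the highest. Means were 70.8 ± 3.49 CPM with myriocin (SD, n = 6) and 69.0 ± 1.90 CPM with DMSO (SD, n = 5), a log2 fold change of 0.04 (SE 0.05, 95% interval -0.08 to 0.16). It was 0.012 without Myriocin replicate 4, 0.003 without that library and DMSO replicates 2 and 5, and 0.0009 without TMM scaling. An antisense gene, Gm16754, shares 510 exon bases with Keap1, and it took 140 reads over all libraries against 17572 for Keap1. The counting strand is not given in the sources used here.

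The next genes make or recycle glutathione, the main small thiol of the cell. Gclc (ENSMUSG00000032350, chromosome 9, 77754535 to 77794485, plus strand) encodes the catalytic subunit of glutamate-cysteine ligase, the rate-limiting enzyme of glutathione synthesis. It had 17.2, 15.97, 16.01, 12.2, 15.6 and 17.8 CPM in Myriocin replicates 1 to 6, and 14.7, 11.8, 19.1, 18.0 and 14.1 CPM in DMSO replicates 1 to 5. Myriocin replicate 4 and DMSO replicate 2 were low and DMSO replicates 3 and 4 high, and all 6 myriocin values lay inside the DMSO range. Its log2 fold change was 0.02 (SE 0.12, 95% interval -0.24 to 0.29). That sign turned without Myriocin replicate 1 or 6 or DMSO replicate 2 or 5, with values between -0.063 and -0.002, and without TMM scaling (-0.009).

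Gclm (ENSMUSG00000028124, chromosome 3, 122245557 to 122270732, plus strand) encodes the modifier subunit, which raises the ligase's affinity for glutamate and eases its feedback inhibition. It had 19.1, 17.8, 18.1, 16.9, 17.0 and 18.3 CPM in Myriocin replicates 1 to 6, and 16.7, 18.3, 20.8, 18.4 and 17.6 CPM in DMSO replicates 1 to 5. DMSO replicate 3 was the highest library and DMSO replicate 1 the lowest, and the myriocin values lay between them. Its estimate was a log2 fold change of -0.04 (SE 0.07, 95% interval -0.19 to 0.11), and 0.009 without DMSO replicate 3. Exons of Gclm overlap those of Gm17494 on the other strand and of the pseudogene Gm6061 on its own strand, by 296 and 244 bases, and those genes took 23 and 0 reads over all libraries. Matches to Gclm of at least 200 bases at 90% identity were found in 25 annotated pseudogenes. They were partial, the longest being 255 bases, while the exons of Gclm span 6291 bases. The 22 of these pseudogenes in the count table took 191 reads, against 4551 for Gclm.

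Gsr (ENSMUSG00000031584, chromosome 8, 33652523 to 33698163, plus strand) encodes glutathione reductase, which returns oxidised glutathione to its reduced form with NADPH. Myriocin replicates 1 to 6 had 29.8, 28.2, 30.2, 31.7, 29.6 and 26.9 CPM, and DMSO replicates 1 to 5 had 28.4, 34.2, 28.0, 28.6 and 31.0 CPM. DMSO replicate 2 was the highest library and Myriocin replicate 6 the lowest, and the other values of both groups lay between them. The log2 fold change was -0.03 (SE 0.07, 95% interval -0.18 to 0.12), and 0.02 without DMSO replicate 2.

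The thioredoxin branch passes electrons from NADPH through thioredoxin to peroxiredoxins, which remove peroxides. Txnrd1 (ENSMUSG00000020250, chromosome 10, 82833951 to 82897712, plus strand), cytosolic thioredoxin reductase, had 91.7, 96.5, 94.7, 86.6, 90.1 and 94.6 CPM in Myriocin replicates 1 to 6, and 92.9, 74.98, 102.0, 100.9 and 96.2 CPM in DMSO replicates 1 to 5. All 6 myriocin values lay inside the DMSO range, whose low end was DMSO replicate 2. Myriocin minus DMSO, the log2 fold change was -0.02 (SE 0.08, 95% interval -0.18 to 0.15). It was above 0 without Myriocin replicate 4 (0.001), DMSO replicate 3 (0.017) or DMSO replicate 4 (0.014), and 0.06 without the 3 libraries with hepatocyte transcripts.

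Prdx1 (ENSMUSG00000028691, chromosome 4, 116685544 to 116700822, plus strand), a cytosolic peroxiredoxin, was the most abundant of the 10 transcripts. Myriocin replicates 1 to 6 had 150.6, 150.9, 150.3, 169.3, 150.8 and 150.8 CPM, and DMSO replicates 1 to 5 had 142.2, 174.1, 161.6, 149.7 and 175.7 CPM. Apart from Myriocin replicate 4 the myriocin values were nearly equal, while the DMSO values lay on both sides of them. The means were 153.8 ± 7.61 CPM with myriocin (SD, n = 6) and 160.7 ± 14.7 CPM with DMSO (SD, n = 5), a log2 fold change of -0.06 (SE 0.07, 95% interval -0.21 to 0.08). Leaving out 1 library gave between -0.104 without DMSO replicate 1 and -0.032 without DMSO replicate 5, with -0.033 without DMSO replicate 2, and it was -0.006 without DMSO replicates 2 and 5 and Myriocin replicate 4. Its 3 annotated pseudogenes with at least 200 matching bases at 90% identity took 179 reads over all libraries against 39433 for Prdx1, and reads with several placements were set aside by the authors' counting.

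Srxn1 (ENSMUSG00000032802, chromosome 2, 152105516 to 152111376, plus strand) encodes sulfiredoxin, which repairs over-oxidised peroxiredoxins. It had 33.3, 38.6, 31.8, 30.2, 31.6 and 42.5 CPM in Myriocin replicates 1 to 6, and 38.7, 28.2, 48.9, 33.9 and 38.3 CPM in DMSO replicates 1 to 5. DMSO replicate 3 was the highest library and DMSO replicate 2 the lowest, and the myriocin values lay between them. The log2 fold change was -0.12 (SE 0.13, 95% interval -0.39 to 0.16), with -0.20 without DMSO replicate 2 and -0.004 without DMSO replicate 3.

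The last pair handles quinones and haem. Nqo1 (ENSMUSG00000003849, chromosome 8, 107388225 to 107403206, minus strand), a quinone reductase widely used as a marker of NRF2 activity, had 18.3, 20.4, 17.1, 23.2, 19.4 and 17.6 CPM in Myriocin replicates 1 to 6, and 19.0, 17.6, 23.2, 20.04 and 18.8 CPM in DMSO replicates 1 to 5. The highest value of each group was nearly the same, in Myriocin replicate 4 and DMSO replicate 3. The log2 fold change was -0.03 (SE 0.09, 95% interval -0.23 to 0.17). Leaving out Myriocin replicate 3 gave 0.005, leaving out Myriocin replicate 4 gave -0.089, and leaving out DMSO replicate 3 gave 0.035. The estimate farthest from 0 was -0.16, without DMSO replicates 2 and 5 and Myriocin replicate 4.

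Hmox1 (ENSMUSG00000005413, chromosome 8, 75093621 to 75100589, plus strand) encodes haem oxygenase, which opens the haem ring and is also made by macrophages that take up red cells. It was the transcript with the fewest reads, 138 to 206 per library. It had 7.94, 7.88, 8.03, 6.34, 6.48 and 7.42 CPM in Myriocin replicates 1 to 6, and 5.96, 7.17, 8.94, 7.27 and 6.60 CPM in DMSO replicates 1 to 5. Every myriocin value lay inside the DMSO range. Its log2 fold change was 0.03 (SE 0.11, 95% interval -0.21 to 0.27), and it was -0.03 without DMSO replicate 1 and -0.005 without TMM scaling. The summed level of 8 macrophage markers was 137.7 to 305.6 CPM with myriocin and 177.8 to 295.9 CPM with DMSO, all 8 markers having reads in every library. The sum of 5 erythroid genes was 45.9 to 242.6 CPM with myriocin and 52.5 to 125.8 CPM with DMSO. The part of either in the Hmox1 level was not tested.

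Levels were then compared between genes per kilobase of annotated exon. Over all 11 libraries Prdx1 stood highest at 51.6 ± 3.73 CPM per kb (SD, n = 11), 17.9 times the lowest, Gclm, at 2.88 ± 0.185 CPM per kb. Between them came Keap1 (14.9 ± 0.619), Txnrd1 (13.1 ± 1.04), Srxn1 (12.8 ± 2.16), Nqo1 (12.6 ± 1.35), Gsr (10.8 ± 0.752), Nfe2l2 (9.98 ± 1.08), Gclc (4.16 ± 0.625) and Hmox1 (4.15 ± 0.506), all in CPM per kb. Ranges over the libraries did not overlap between Prdx1 and Keap1, between Nfe2l2 and Gclc, or between Hmox1 and Gclm. They overlapped for the other neighbours in this order, so that the order of Srxn1 and Nqo1 held in 7 of 11 libraries and that of Gclc and Hmox1 in 5 of 11. Keap1 thus exceeded Nfe2l2 per length, the ratio of Nfe2l2 to Keap1 being 0.635 ± 0.0666 with myriocin (SD, n = 6) and 0.715 ± 0.102 with DMSO (SD, n = 5). For the ligase subunits, the ratio of Gclm to Gclc was 0.685 ± 0.0734 with myriocin and 0.725 ± 0.126 with DMSO. Such values rest on the union of all annotated exons, and a gene used mainly in a short form would read too low.

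Single libraries held many of the extreme values. DMSO replicate 3 held the highest value for 6 of the 10 genes (Nfe2l2, Gclc, Gclm, Txnrd1, Srxn1 and Hmox1) and was the highest library for 5.38% of all genes. DMSO replicate 2 held the lowest for 4 (Keap1, Gclc, Txnrd1 and Srxn1) and for 12.02% of all genes. The SD of log2 CPM was larger among DMSO than among myriocin libraries for 8 of 10 genes, and for 53.4% of all genes. Within groups the SD of Keap1 was 0.059 log2 units, smaller than that of all but 3.0% of the 500 genes nearest to it in level. Srxn1 and Gclc were the most variable, with SDs of 0.24 log2 units each, above those of 90.4% and 85.2% of their neighbours in level.

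**Figure D3:**
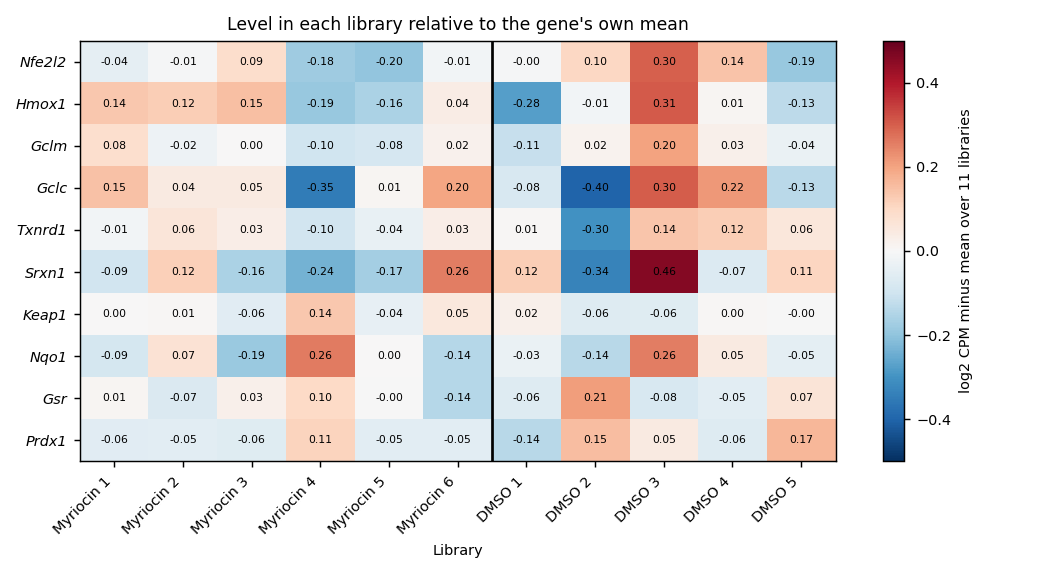
Log2 CPM of each gene (rows) in each library (columns, myriocin left of the line and DMSO right of it) minus that gene's mean over 11 libraries. DMSO replicate 3 is high for Nfe2l2, Hmox1, Gclm, Gclc, Txnrd1 and Srxn1, while Gsr and Prdx1 are high in DMSO replicate 2, where Gclc, Txnrd1 and Srxn1 are low.

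Some of the genes varied together across libraries and others in opposite directions. The share of other gene pairs with correlations as strong was not worked out, so none given below is shown to be particular to this set. Of 45 pairs of genes, 27 had a positive and 18 a negative Pearson correlation of log2 CPM over 11 libraries, with a median r of 0.09, and 3 pairs passed after Benjamini-Hochberg adjustment over the 45. Gclm and Hmox1 varied together (r = 0.89, permutation p = 0.00021, adjusted 0.00945). Their Spearman rho was 0.82 (permutation p = 0.00327, adjusted 0.0736), and r was 0.77 without the 2 libraries farthest from the median of Gclm. With values centred on the group means r was 0.94, and without DMSO replicates 2 and 5 and Myriocin replicate 4 it was 0.88.

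Gclc went with Txnrd1 (r = 0.82, permutation p = 0.00095, adjusted 0.018) and against Gsr (r = -0.84, permutation p = 0.0012, adjusted 0.018). Spearman rho was 0.71 and -0.74 for these pairs, with an adjusted permutation p of 0.12 for each. Both rested in part on the pair of libraries farthest out for Gclc, Myriocin replicate 4 and DMSO replicate 2: without them r was 0.53 (permutation p = 0.141) and -0.57 (permutation p = 0.109). Without DMSO replicates 2 and 5 and Myriocin replicate 4, r of Gclc with Gsr was -0.35. By rank, the pair that passed was Gsr with Srxn1 (rho = -0.86, permutation p = 0.00103, adjusted 0.0463, with r = -0.76 and an adjusted p of 0.0581), and r was -0.63 without Myriocin replicate 6 and DMSO replicate 2. No pair passed by both measures. Gsr and Prdx1 had r = 0.72 (permutation p = 0.0112, adjusted 0.0677), and -0.12 without DMSO replicates 2 and 5 and Myriocin replicate 4. Nfe2l2 itself had r = 0.75 with Gclm (permutation p = 0.00775, adjusted 0.0581) and 0.70 with Hmox1 (permutation p = 0.0176, adjusted 0.0882), falling to 0.44 and 0.45 without Myriocin replicate 5 and DMSO replicate 3. Gclc had r = 0.61 with Gclm and 0.62 with Hmox1, and 0.83 and 0.75 without Myriocin replicate 4 and DMSO replicate 2. Nfe2l2 had r = 0.24 with Txnrd1 and 0.46 with Gclc. Without DMSO replicate 2 these were 0.78 and 0.75, and without the 3 libraries with high hepatocyte sums 0.18 and 0.17.

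**Figure D4:**
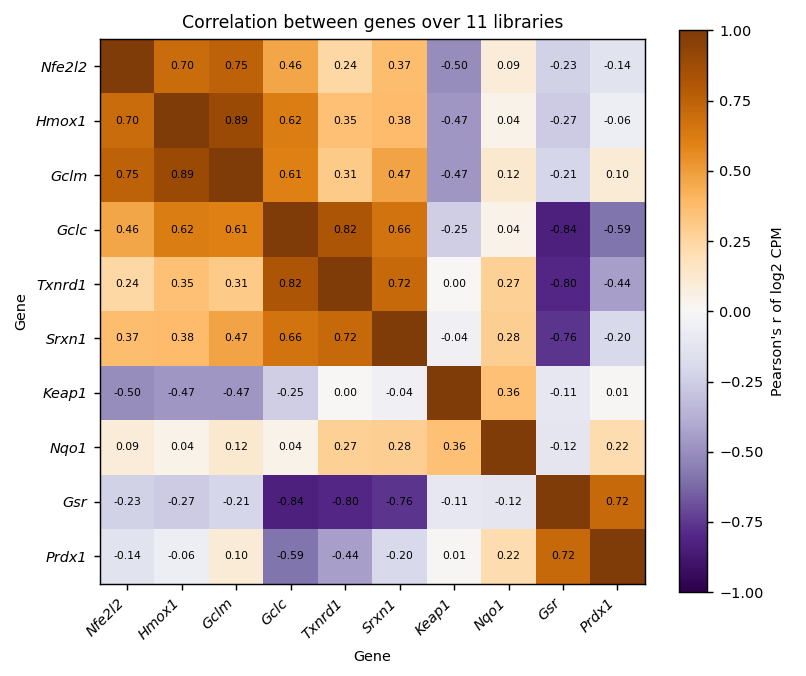
Pearson's r of log2 CPM over 11 libraries for each pair of genes, on a scale from -1 to 1. Nfe2l2, Hmox1 and Gclm share positive values, as do Gclc, Txnrd1 and Srxn1. Gsr is negative with Gclc, Txnrd1 and Srxn1 and positive with Prdx1 (r = 0.72). These are not separate groups, since Gclc is also positive with Gclm (r = 0.61) and Hmox1 (r = 0.62), and several values change when single libraries are left out.

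Among 11739 other genes with a symbol and a mean of at least 1 CPM, those most like Nfe2l2 over the 11 libraries were Sh2d4a, Zfp422, Rab14, Myc and Gtpbp4. Their r was 0.88, 0.87, 0.87, 0.86 and 0.85. These are the extremes of many comparisons over few libraries and are given as a description.

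The wider NRF2 pathway was followed through 72 further genes in 6 lists, of which 67 passed the filter on low counts. None of the 67 passed the test (0 higher and 0 lower). An unadjusted p under 0.05 was found for 4 (5.97%, beside 4.68% of all genes), each with a negative log2 fold change. That count was 2 without Myriocin replicate 2, Myriocin replicate 3 or DMSO replicate 3. It was 10 of 66 without Myriocin replicate 4, and 8 without TMM scaling or without the 3 libraries with high hepatocyte sums. Over all genes the count also rose, from 660 to 1449 without Myriocin replicate 4 and to 1022 without those 3 libraries. The share of all genes was not worked out for these settings. In all, 49 of the 67 had a negative log2 fold change, with a median of -0.05 against -0.01 over all genes. The negative count rested on DMSO replicate 2, without which it was 33 of 67 with a median of 0.0003. The 5 genes that did not pass the filter were Slc7a11, the cystine carrier, with 18 reads over all libraries, Gsta1 with 7, Gsta2 with 6, Gstm6 with 104 and Abcb6 with 104.

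Regulators and partners of NRF2 had 8 of 12 genes negative, with a median of -0.06, and a median between -0.11 and -0.02 over the alternatives. The small MAF proteins are the partners with which NRF2 binds DNA. Maff had 3.80 ± 0.759 CPM with myriocin (SD, n = 6) and 4.998 ± 0.878 CPM with DMSO (SD, n = 5), a log2 fold change of -0.39 (SE 0.15), and Mafk had 25.5 ± 3.46 and 31.0 ± 5.83 CPM, a log2 fold change of -0.28 (SE 0.12). Both had an adjusted p of 0.936, all 6 myriocin values under the mean of DMSO, and a negative sign in all 22 alternatives. Maff and Mafk were named for their small p in these data, and the alternatives reuse the same libraries. The steady sign and the side of the mean are therefore no separate support for a difference. Without the 3 libraries with high hepatocyte sums the log2 fold change of Maff was -0.20.

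Genes of glutathione synthesis, conjugation and export had 10 of 19 negative and a median of -0.01. They had 14 of 19 negative with a median of -0.09 without Myriocin replicate 4, and 8 of 19 with a median of 0.05 without DMSO replicate 2. Mgst1, a membrane-bound glutathione transferase, had 23.7 ± 4.83 CPM with myriocin and 32.4 ± 10.9 CPM with DMSO (log2 fold change -0.45, SE 0.20), with -0.23 without DMSO replicate 2 and -0.73 without the 3 libraries with high hepatocyte sums. Gstm7, a transferase of the mu family whose members are alike in sequence, had a log2 fold change of -0.32 (SE 0.17), and -0.57 without those 3 libraries.

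The list of other thioredoxins and peroxiredoxins also held the reductases Txnrd2 and Txnrd3 and the thioredoxin inhibitor Txnip. All 10 of its genes were negative, beside 53.7% of all genes. The amounts were small, from -0.13 to -0.004, with a median of -0.06. The number negative stayed at 10 of 10 with DESeq2 size factors, upper-quartile scaling or no scaling, and went down to 7 of 10 without Myriocin replicate 5 or without DMSO replicates 2 and 5 and Myriocin replicate 4. Prdx6, which reduces peroxidised phospholipids, had 84.2 ± 6.29 CPM with myriocin (SD, n = 6) and 92.1 ± 6.24 CPM with DMSO (SD, n = 5), a log2 fold change of -0.13 (SE 0.07). Prdx5, found in mitochondria and peroxisomes, had a log2 fold change of -0.12 (SE 0.11), with -0.18 without DMSO replicate 4 and -0.016 without DMSO replicate 5.

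Genes that supply NADPH had 6 of 7 negative and a median of -0.16, but 2 of 7 without DMSO replicate 2, with a median of 0.12. G6pdx, glucose-6-phosphate dehydrogenase, had 6.79 ± 1.16 CPM with myriocin and 8.99 ± 6.42 CPM with DMSO (log2 fold change -0.41, SE 0.35), with -0.81 without the 3 libraries with high hepatocyte sums and 0.14 without DMSO replicate 2, the library with the high adipocyte and neutrophil sums. The part of those cells was not tested. Pgls, the lactonase that follows it, had a log2 fold change of -0.18 (SE 0.13), and -0.083 without DMSO replicates 2 and 5 and Myriocin replicate 4.

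Haem and iron genes had 5 of 7 negative and a median of -0.01, but 2 of 7 with a median of 0.02 without DMSO replicate 2, and 3 of 7 without Myriocin replicate 1, 3 or 6. Ftl1, the ferritin light chain, which has many processed copies, had 27.4 ± 3.97 CPM with myriocin and 32.5 ± 5.59 CPM with DMSO (log2 fold change -0.24, SE 0.12), and -0.15 without DMSO replicates 2 and 5 and Myriocin replicate 4. Blvra, the biliverdin reductase that follows haem oxygenase, had 9.71 ± 0.915 and 8.75 ± 0.942 CPM, a log2 fold change of 0.15 (SE 0.09), and 0.096 without Myriocin replicate 4.

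Detoxifying oxidoreductases and hydrolases had 10 of 12 negative and a median of -0.06, and 5 of 12 negative without DMSO replicate 2. Cbr3, a carbonyl reductase, had 1.33 ± 0.289 CPM with myriocin (SD, n = 6) and 1.91 ± 0.342 CPM with DMSO (SD, n = 5), giving a log2 fold change of -0.53 with an SE of 0.18 (adjusted p = 0.936). It was the only gene of the 67 whose groups did not overlap, beside 0.361% of all genes. Its neighbour Cbr1 had 15.3 ± 1.64 and 17.3 ± 1.42 CPM (log2 fold change -0.18, SE 0.09), and both kept a negative sign in all 22 alternatives. Cbr3 and Cbr1 were also named for their small p in the same libraries, so the steady sign is no separate support.

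**Figure D5:**
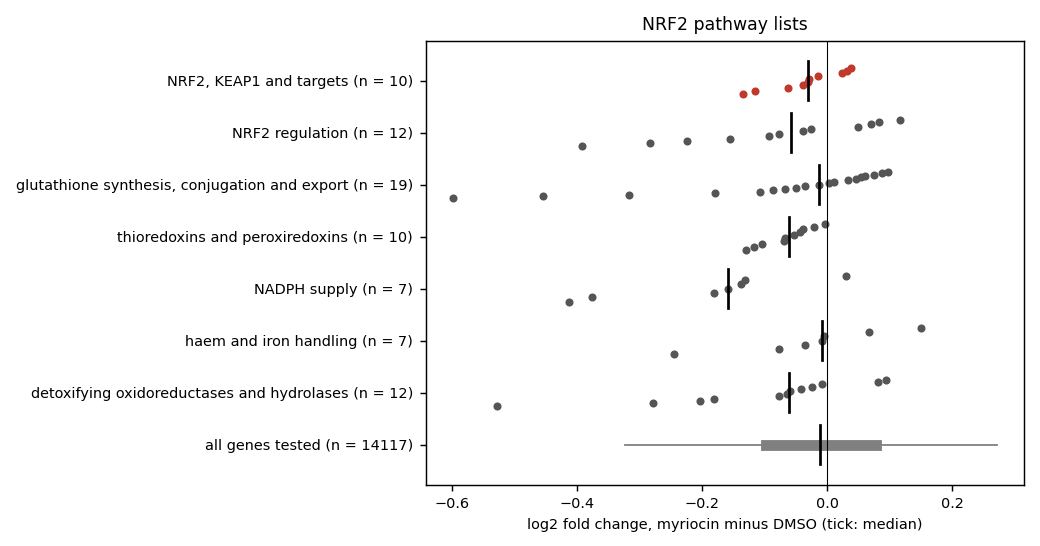
Log2 fold change, myriocin minus DMSO, of each gene in the NRF2 set and in 6 further lists (points; the tick is the list's median), above all 14117 genes tested (thin line from the 5th to the 95th percentile, thick line the middle quartiles). No point passed the test, and the NRF2 set lies between -0.13 and 0.04.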

How the data were processed

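RNA from quadriceps was isolated with a Direct-zol kit and sequenced by DNBseq, per the labels' protocols. The authors deposited raw read counts per Ensembl gene, and the submitters' processing notes name STAR 2.5.2b, HTSeq 0.6.0 and the build GRCm38. The sources used here do not give the annotation release, strand setting, read filters, dose, route or sex. Columns were assigned to samples by name, and 0 were left over. HTSeq's 5 summary lines (24.8% to 28.2% of reads, mainly reads with several alignments) stayed out of totals and tests. Symbols, positions and exon lengths came from GENCODE M21 (53360 of 53465 genes matched).

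The test was run in edgeR 4.0.16 (R 4.3.3) on those counts: filterByExpr by group (minimum count 10, minimum total 15), TMM scaling and the quasi-likelihood F test with robust estimation and a model of treatment alone. Benjamini-Hochberg adjustment ran over 14117 genes, at 0.05 and 2-sided. The SE is the absolute log2 fold change over the square root of F. Correlations used log2 CPM with a prior count of 2 and 100000 permutations, 2-sided. A floor of 3 counts is 0.130 to 0.135 CPM, and intervals cover the fitted spread between libraries. Within each group no library was a copy of another (chi-square per degree of freedom 8.18 to 44.2). Libraries of different groups were not compared in this way. The edgeR steps alone were also run on simulated counts with known changes, drawn without any library standing apart. The outcome is not given here. Alternatives used DESeq2 1.42.0 and limma 3.58.1. Copies were sought with BLAST 2.17.0.

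The members, lists, marker genes and alternatives were chosen with earlier results of these data known. DMSO replicates 2 and 5 and Myriocin replicate 4 were left out together as the libraries farthest out in an earlier account of these data. That choice was not recomputed here. Named genes were the members, in each pathway list the 2 tested genes with the smallest p and any with an unadjusted p under 0.05, and the 5 genes most like Nfe2l2 by Pearson r.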

Additional observations from a re-analysis of the deposited data

Results flagged for a closer look

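Prdx1 in Myriocin replicate 4, at 169.3 CPM, lay far above the other 5 myriocin libraries, which held 150.3 to 150.9 CPM. The gap to the nearest library took up 0.965 of the group's range. Of the 20 sets examined (10 genes in each of 2 groups) this was the only sample past the cutoff for distance from its group. Chance sets apart about 1 in 20 at that cutoff, and this gap lay above it. The log2 fold change of Prdx1, myriocin minus DMSO, was -0.06 with this library and -0.09 without it. Leaving out DMSO replicate 1 gave -0.104, and leaving out DMSO replicate 2 or 5 gave -0.033 and -0.032.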

How the results depend on the processing

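Across 22 alternatives 0 of the 10 members and 0 of the 67 other pathway genes were called. Over all genes DESeq2 called 3, against 0 with edgeR. Nfe2l2, Keap1, Prdx1 and Srxn1 kept their direction in all 22. Their values ran from -0.20 to -0.07 for Nfe2l2, 0.0009 to 0.05 for Keap1, -0.104 to -0.006 for Prdx1 and -0.20 to -0.004 for Srxn1. Single libraries turned the sign of small log2 fold changes when left out, with ranges of -0.0626 to 0.11 for Gclc, -0.0706 to 0.00896 for Gclm, -0.0567 to 0.0196 for Gsr, -0.0855 to 0.0169 for Txnrd1, -0.0892 to 0.0355 for Nqo1 and -0.0284 to 0.12 for Hmox1. Without TMM scaling Gclc had -0.00876 and Hmox1 -0.00516, 9 of 10 members were negative, and 64.7% of all genes were negative, against 53.7% with it. Without DMSO replicate 3, 4 of 10 members were negative. Without DMSO replicates 2 and 5 and Myriocin replicate 4, Gclc had -0.066, Gsr 0.029, Nqo1 -0.16 and Prdx1 -0.006. Without the 3 libraries with high hepatocyte sums, Txnrd1 had 0.059. With the replicate number as a block over 10 libraries Gclc had -0.0022, 0 members were called, and 509 genes had an unadjusted p under 0.05, against 660 without the block. Same-numbered libraries did not deviate together (r of deviations -0.13 to 0.09), so no pairing by number was visible. Such values over all genes cannot exclude that the numbers mark a shared batch. The count of 660 became 1449 without Myriocin replicate 4, 1022 without the libraries with high hepatocyte sums, 1140 without DMSO replicates 2 and 5 and Myriocin replicate 4, and 1167 with no filter. The cause of these shifts was not tested. Leaving out whole libraries from the correlations was chosen after seeing the data.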

Other observations

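For the other members, the genes most alike over the 11 libraries were looked up in the same way after the values had been seen, and the values are given as a description. Among 11739 genes, the gene most like Gclm was Hmox1 (r = 0.89), and Gclm came next for Hmox1 after Cops2 (r = 0.91) and Pde7a (r = 0.90). Txnip, which binds and inhibits thioredoxin, ranked 3 for Txnrd1 (r = 0.92). The 5 genes most like Gsr were Rps15a, Btf3, Rpl5, Rps21 and Rpl15, with r between 0.92 and 0.95, 4 of them encoding ribosomal proteins. Those most like Prdx1 were Pfdn5, Ndufa7, Banf1, Eif3k and Gps2, with r between 0.95 and 0.96. Ribosomal protein genes have many processed copies, and DMSO replicate 2 was the library in which Gsr was highest. The part of either in these correlations was not tested.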
